A study of Paeonia lactiflora with 8 samples.

Results

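MYB transcription factors are DNA-binding regulators, and 44 of the 30177 assembled gene IDs of herbaceous peony (Paeonia lactiflora Pall.) carried a MYB name in the deposited annotation. Members were chosen by the gene name alone: names beginning with MYB and a letter or digit, AtMYB, ODO1 or GAMYB, or equal to WER, GL1 or TT2. The 44 IDs shared 21 names, and 42 of them also had the KEGG entry for a plant MYB protein. A further 31 IDs with that entry had names outside this rule and were not used here. The names come from other plants, so that a name says which known protein an ID resembles and not that it is the same gene.

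Poly(A) RNA of 4 organs was sequenced. Root, leaf and flower were sampled in the blossom period and fruit in its young stage, and each organ had 2 replicates that the study calls biological, so that there were 8 libraries. The study asked how the organs differ, since they differ in paeoniflorin, the monoterpene glucoside for which peony root is used. The labels give no cultivar, genotype or treatment and do not say how many plants were pooled. Wherever fruit is compared, its organ and its stage cannot be told apart. Total estimated counts ran from 30399492 to 49421130 per library. IDs named TAR1-A, a name of transcripts antisense to ribosomal RNA, took 41.4% of flower replicate 2 and between 1.77% and 18.9% of each other library. Chlorophyll-binding and Rubisco small subunit names summed to 107838 and 78720 scaled CPM (counts brought to one common library size) in leaf and at most 7369 elsewhere. The petal and stamen gene GLO (comp18082_c0) reached 1007 and 764 scaled CPM in flower and at most 0.05 elsewhere, and the root names AGL12 and MADS27 summed to 17.0 and 29.1 in root and at most 3.95 elsewhere. A list of seed storage and oil body names held only OLE1 and OLE9 among its 6 tested IDs. It summed to 99.8 scaled CPM in fruit replicate 1 and 5354 in fruit replicate 2, against 65.8 to 170 in the other libraries. Outside fruit the level lay mostly in OLE9 (comp20675_c0), which had 65.2 to 125 scaled CPM there and no organ call. The excess of fruit replicate 2 lay in a pair of IDs named OLE1, an oleosin of oil bodies, with 5.07 and 4744 (comp23438_c0) and 0.321 and 557 (comp5785_c0) scaled CPM in the fruit libraries, while the other 4 tested IDs of the list were higher in replicate 1.

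MYB proteins bind DNA through helix-turn-helix repeats, and the plant family is dominated by R2R3 types with a pair of such repeats. Members are known for switching on or holding back flavonoid, anthocyanin and lignin genes, often together with bHLH and WD40 partners, and for shaping petals, stamens, root hairs and trichomes. MYB3R members, with an additional repeat, regulate genes of cell division. In flowers, MYB regulators are known for pigment and for the scent and nectar of petals and nectaries.

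Levels are given as scaled CPM, in which the library size was adjusted by TMM, and TPM is used where genes are compared with each other. A log2 difference of an organ is that organ minus the mean of the other 3. The value after ± is an approximate standard error (SE), the size of the log2 difference divided by the square root of its F statistic. It is no reliable measure of precision where an organ held few counts. All p-values were adjusted by Benjamini-Hochberg across the 27939 IDs that entered the edgeR quasi-likelihood fit. An enriched gene passed at an adjusted p under 0.05 and stood at least 1 log2 unit above each other organ. A low gene passed the same test and stood at least 1 log2 unit below each other organ. A call is given as lost without a library where the adjusted p then was 0.05 or more or the gap to another organ shrank below 1, and a range of p that starts under 0.05 includes the second case. In bulk organs, fewer cells of a type and less RNA per cell cannot be told apart.

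Of the 44 MYB genes, 41 passed the filter on counts. The 3 that did not were MYB21 (comp1892_c0), MYB44 (comp172652_c0) and MYB5 (comp131552_c0), which held 50, 31 and 19 counts over all libraries. Of the 41, 22 differed among the 4 organs at an adjusted p under 0.05, where 29.3% of all genes tested did (53.7% of the MYB genes). Enrichment in flower was called for 10 MYB genes (24.4%, against 9.94% of all genes tested), in root for 6 (14.6%, against 4.68%), in leaf for 2 (4.88%, against 7.73%) and in fruit for 0 (against 2.8%). Low calls numbered 5 in flower (6.83% of all genes tested), 4 in leaf (2.52%), 3 in fruit (0.812%) and 2 in root (3.18%). Of the 22 that differed, MYB44 (comp19927_c0) and MYB44 (comp6363_c0) had no single organ apart. Together 22 MYB genes were enriched or low in some organ, and 17 had no call of any kind. Pairs of organs were called at an adjusted p under 0.05 and a difference of at least 1 log2 unit, the first organ against the second. Root against leaf was higher for 5 (4.45% of all genes tested) and lower for 1 (7.92%), and root against flower higher for 9 (9.39%) and lower for 11 (11.2%). Root against fruit was higher for 1 (0.816%) and lower for 1 (1.24%), and leaf against flower higher for 4 (10%) and lower for 10 (9.32%). Leaf against fruit was higher for 3 (6.05%) and lower for 6 (3.59%), and flower against fruit higher for 6 (8.06%) and lower for 5 (6.65%). The number that differed among all 4 organs was 13 without leaf replicate 1, 12 without leaf replicate 2 and 14 without flower replicate 1, and 16 to 19 without each of the other libraries. Among all genes tested, the count of 8181 fell likewise to 4028, 3615 and 4130 without those 3 libraries.

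**Figure D1:**
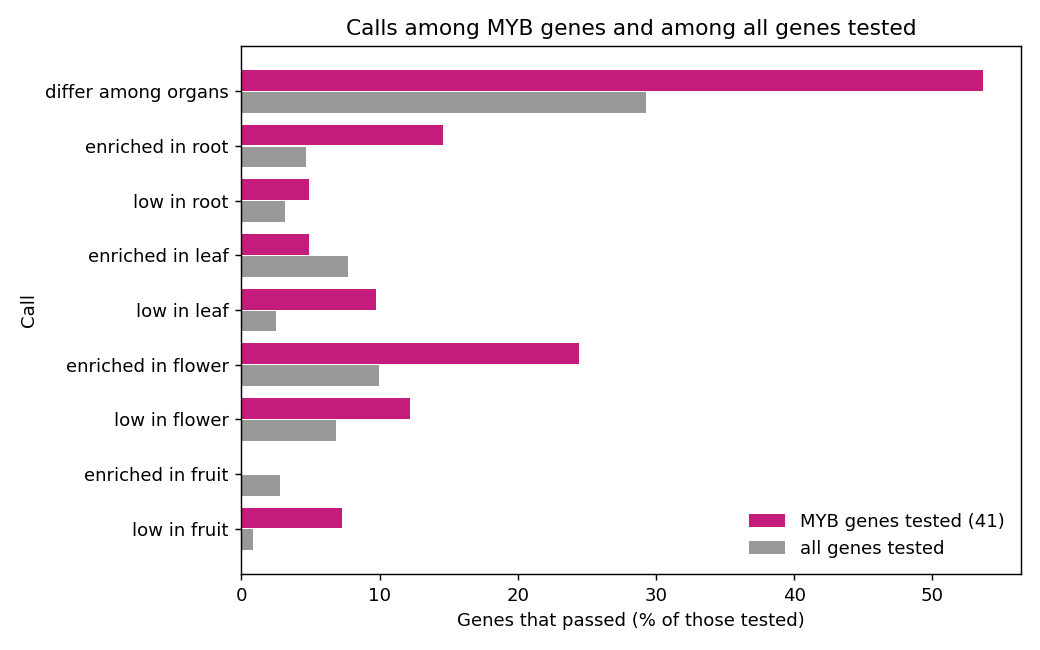
Share of genes that passed each call, in percent of those tested, for the 41 MYB genes (upper bars) and for all 27939 genes tested (lower bars). Flower enrichment was called for 24.4% of MYB genes and 9.94% of all genes, and fruit enrichment for 0 MYB genes.

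The median log2 difference of the 41 tested MYB genes was 0.81 for root, -0.94 for leaf, 0.05 for flower and 0.48 for fruit. The same medians over all genes tested were 0.10, 0.02, -0.21 and 0.01. With the 8 MYB genes left out that had no count in some organ, whose fitted values depend on the prior count, the medians were 0.48 for root, -0.82 for leaf, 0.83 for flower and 0.05 for fruit. The mean level was highest in root for 20 of the 44 MYB genes, in flower for 12, in fruit for 10 and in leaf for 2. Of the 41 tested, 18 were highest in root (43.9%), 12 in flower (29.3%), 9 in fruit (22%) and 2 in leaf (4.88%). Over all genes tested the highest organ was root for 26.7%, flower for 28.5%, fruit for 19.1% and leaf for 25.8%. A highest mean is not a call, and many IDs below did not pass a test.

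The 20 IDs highest in root were MYB3 (comp6357_c0), MYB12 (comp21199_c0), MYB21 (comp14980_c0), MYB48 (comp11141_c0), MYB114 (comp69772_c0), mybQ (comp10390_c0), WER (comp13484_c0) and 13 more. Those 13 were MYB5 (comp3741_c0 and comp131552_c0), MYB44 (comp2177_c0 and comp172652_c0), MYB82 (comp16846_c0 and comp1754_c0), MYB86 (comp109554_c0), MYB308 (comp10579_c0 and comp73704_c0), MYB3R-1 (comp2800_c1 and comp96965_c0) and ODO1 (comp9843_c0 and comp9843_c1). The 12 highest in flower were MYB4 (comp11577_c0), MYB5 (comp18111_c0), MYB12 (comp13970_c0 and comp13970_c1), MYB39 (comp14321_c0), MYB44 (comp19927_c0 and comp33225_c0), MYB90 (comp13421_c0), MYB305 (comp14131_c0), MYB306 (comp20908_c0), MYB308 (comp14462_c0) and ODO1 (comp1820_c0). The 10 highest in fruit were MYB4 (comp72568_c0 and comp807_c0), MYB21 (comp1892_c0), MYB44 (comp14383_c0, comp14678_c0 and comp6363_c0), MYB86 (comp10383_c0), MYB305 (comp562_c0), MYB330 (comp20422_c0) and MYB3R-1 (comp12539_c1). TT2 (comp20343_c0) and MYB306 (comp9844_c0) were highest in leaf.

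By the known role of their names, the tested members fell into groups of unequal size. Over all genes tested, 29.3% differed among organs. Enriched calls took 9.94% of them in flower, 4.68% in root and 7.73% in leaf. Low calls took 6.83% in flower, 2.52% in leaf, 0.812% in fruit and 3.18% in root. No group was tested against these shares. Of 8 flavonoid activators tested (MYB5, MYB12, MYB90, MYB114 and TT2), 7 differed among organs. Of the 8, 4 were called enriched in flower, 3 in root and 1 in leaf, and low calls numbered 2 in flower and 2 in fruit. Among the flower enrichment calls, MYB5 (comp18111_c0) was the ID that did not pass among organs. Of 8 phenylpropanoid repressors tested (MYB3, MYB4, MYB308 and MYB330), 6 differed, with 2 enriched in flower and 1 in root, and with 3 low in leaf, 2 low in flower and 1 low in fruit. Of 6 floral names tested (MYB21, MYB305 and ODO1), 2 differed and both were enriched in flower, with 1 low call in root. Of 6 MYB44 IDs tested, 3 differed and 1 was enriched in flower. Of 3 IDs named for epidermal cell fate (MYB82 and WER), 1 differed and was low in leaf. Of 3 MYB3R-1 IDs, 1 differed, enriched in root and low in flower.

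**Figure D2:**
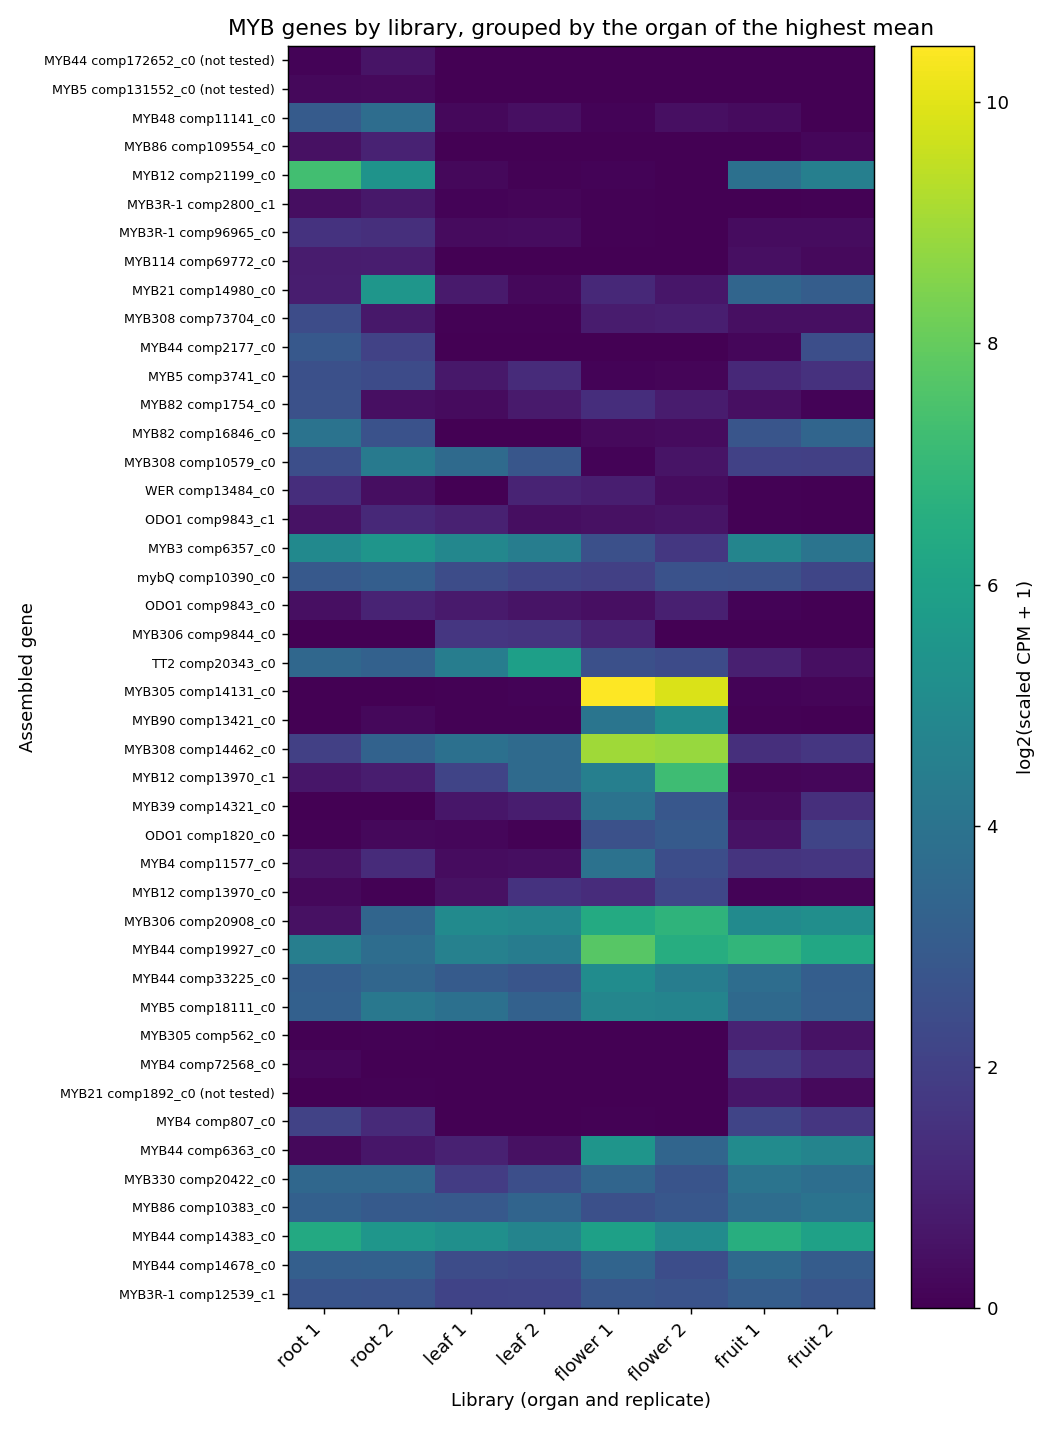
Level of each of the 44 MYB genes as log2(scaled CPM + 1) in the 8 libraries, with rows grouped by the organ of the highest mean. MYB305 (comp14131_c0) and MYB308 (comp14462_c0) stand out in both flower libraries, and several IDs of one name lie in different organ groups.

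MYB305, named after a snapdragon regulator that activates phenylalanine ammonia-lyase in flowers and known in tobacco from nectaries, was the most abundant MYB gene. Its longer ID (comp14131_c0, 1084 bases) had 1415 and 943 scaled CPM in flower, against 0 and 0.017 in root, 0.044 and 0.087 in leaf, and 0.088 and 0.097 in fruit. Flower held 42951 and 16689 of its counts, and root held 0 and 1, leaf 2 and 4, and fruit 6 and 4. Both flower libraries stood above the other 6 libraries with no overlap. The log2 difference of flower was 14.75 ± 0.52 (adjusted p = 2.47e-04), and flower passed against each single organ, by 13.60 ± 0.82 against fruit and 14.07 ± 0.84 against leaf. The residual counts in leaf and fruit did not pass against each other (log2 difference of leaf against fruit -0.47 ± 0.69, adjusted p = 0.743). Root was called low (adjusted p = 0.00409), but root did not pass against leaf (-2.51 ± 0.93, adjusted p = 0.136) or fruit (-2.98 ± 0.88, adjusted p = 0.138) alone. With 1 count in root the flower to root ratio was bounded only between 24049-fold and 5292791-fold (95% interval for counting error). On TPM this one ID reached 828 and 664 in flower and made up 57.2% and 49.7% of the summed TPM of all 44 MYB genes there, and at most 0.0335% in any other library. The summed MYB level was 1449 and 1336 TPM in flower, against 499 and 584 in root, 198 and 269 in leaf, and 596 and 341 in fruit.

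MYB308 and MYB4 are named after MYB proteins known to repress phenylpropanoid genes. The longest MYB308 ID (comp14462_c0) had 507 and 459.9 scaled CPM in flower, against 2.93 and 8.66 in root, 13.6 and 11.3 in leaf, and 1.62 and 2.14 in fruit. Its log2 difference of flower was 6.55 ± 0.41 (adjusted p = 4.85e-04). It was the second most abundant MYB ID in flower, at 235 and 256 TPM. It was also called low in fruit, where it fell 4.12 ± 0.55 below the other organs on the log2 scale (adjusted p = 0.0147). The fruit call was lost without each library other than root replicate 1 (adjusted p between 0.0097 and 0.0974). MYB4 (comp11577_c0) had 14.2 and 4.52 scaled CPM in flower, against 0.486 and 1.42 in root, 0.287 and 0.304 in leaf, and 2.02 and 2.19 in fruit. Flower was enriched (3.47 ± 0.55, adjusted p = 0.0067) and leaf low (-3.16 ± 0.76, adjusted p = 0.0351). Without flower replicate 1 the flower call was lost (adjusted p = 0.0815), and the leaf call was lost without each library other than root replicate 1 and flower replicate 2 (adjusted p between 0.0522 and 0.237).

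Flavonoid activators, 8 of the 41 tested MYB genes, made up 4 of the 10 IDs enriched in flower and 3 of the 6 enriched in root. MYB12 is known in Arabidopsis as an activator of flavonol synthesis, and its ID comp13970_c1 had 22.2 and 147 scaled CPM in flower, against 0.546 and 0.803 in root, 3.49 and 11.2 in leaf, and 0.117 and 0.146 in fruit. The log2 difference of flower was 6.60 ± 0.70 (adjusted p = 0.00183), although the flower libraries differed between themselves. A shorter MYB12 ID from the same assembly component (comp13970_c0, 255 bases) had 1.52 and 3.73 scaled CPM in flower, against 0.182 and 0.051 in root, 0.397 and 1.87 in leaf, and 0.058 and 0.097 in fruit, so that flower and leaf overlapped. Its flower call (3.57 ± 0.77, adjusted p = 0.0186) was lost without leaf replicate 1 and without each flower and each fruit library (adjusted p between 0.0494 and 0.13). MYB90, a name of an Arabidopsis anthocyanin activator, had 15.9 and 32.6 scaled CPM in flower (comp13421_c0), against 0 and 0.171 in root, 0.044 and 0.043 in leaf, and 0.029 and 0 in fruit. It was enriched in flower by 9.11 ± 0.95 on the log2 scale (adjusted p = 0.0017), with 99.4% of the sum of its organ means in flower. The flower to fruit ratio was 1208-fold, with a counting interval of 334 to 9986, since fruit held 2 counts. MYB5, known in Arabidopsis from proanthocyanidin, mucilage and trichome regulation, had 26.8 and 25.2 scaled CPM in flower (comp18111_c0), against 8.20 and 17.3 in root, 13.6 and 8.42 in leaf, and 11.03 and 7.99 in fruit. Its call in flower was narrow (1.24 ± 0.35, adjusted p = 0.0435), the test among all organs did not pass (adjusted p = 0.113), and the call was lost without each library other than root replicate 2 (adjusted p between 0.06 and 0.2).

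**Figure D3:**
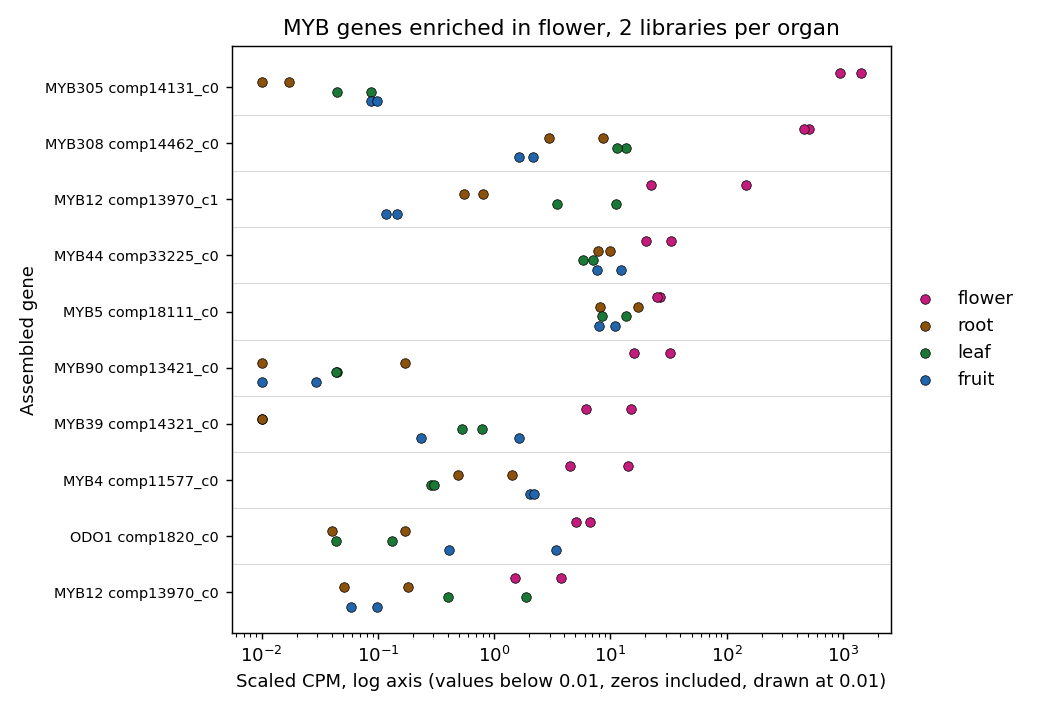
Scaled CPM on a log axis of the 10 MYB genes enriched in flower, 2 points per organ and gene (1 per library), with flower drawn uppermost in each row. The flower points lie to the right of all others in every row except that of MYB12 comp13970_c0, where flower and leaf overlap.

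Of the other genes enriched in flower, ODO1 is named after the petunia regulator of benzenoid scent in petals. Its ID comp1820_c0 had 5.07 and 6.72 scaled CPM in flower, against 0.04 and 0.171 in root, 0.132 and 0.043 in leaf, and 0.409 and 3.41 in fruit. Flower was enriched by 4.47 ± 0.83 (adjusted p = 0.0112), but flower did not pass against fruit alone (1.63 ± 1.12, adjusted p = 0.351), and the higher of the fruit libraries was replicate 2, the one with high OLE1. The part of seed tissue in this level was not tested. The call was lost without flower replicate 1, flower replicate 2 or fruit replicate 1 (adjusted p between 0.0218 and 0.0597). MYB39 shares its name with an Arabidopsis regulator of suberin in the root endodermis. In peony its ID comp14321_c0 had 14.9 and 6.10 scaled CPM in flower, against no count in either root library, 0.53 and 0.781 in leaf, and 0.234 and 1.63 in fruit. Flower was at least 420-fold higher than root, set against 3 counts over both root libraries, and flower was called enriched (adjusted p = 0.00545) and root low (adjusted p = 0.0207). Flower did not pass against leaf alone (adjusted p = 0.0563) or against fruit alone (3.50 ± 1.09, adjusted p = 0.0838). The low call in root was lost without either root library, either leaf library or flower replicate 1 (adjusted p between 0.0568 and 0.0853). MYB44 is known in Arabidopsis from abscisic acid responses, and its ID comp33225_c0 had 33.4 and 20.4 scaled CPM in flower, against 7.79 and 9.98 in root, 7.09 and 5.82 in leaf, and 12.3 and 7.70 in fruit. The log2 difference of flower was 1.70 ± 0.31 (adjusted p = 0.0101), and the call was lost without flower replicate 1 or fruit replicate 2 (adjusted p between 0.0303 and 0.108).

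Without flower replicate 1, 5 of the 10 flower enrichment calls were made, and 7 to 11 without each other library. With scaling by library totals without the 20 highest genes, flower had 6 enriched and 5 low MYB genes, against 10 and 5 with TMM scaling. That scaling placed the median of all genes for flower at -0.76 on the log2 scale, against -0.21 with TMM, and the TPM placed it at -0.77.

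Among the 5 genes low in flower, MYB3 is named after an Arabidopsis repressor of phenylpropanoid synthesis. Its ID comp6357_c0 had 4.88 and 2.20 scaled CPM in flower, against 30.6 and 43.4 in root, 27.8 and 20.9 in leaf, and 26.0 and 15.2 in fruit. The log2 difference of flower was -2.89 ± 0.47 (adjusted p = 0.00713), and flower passed against each single organ while root, leaf and fruit did not pass against each other. A second MYB308 ID (comp10579_c0) was low where the first was enriched, with 0.066 and 0.452 scaled CPM in flower, against 4.65 and 18.9 in root, 11.3 and 5.97 in leaf, and 3.05 and 2.997 in fruit. Its low call in flower (-4.78 ± 1.04, adjusted p = 0.0185) was lost without flower replicate 1 (adjusted p = 0.098). The remaining low genes in flower were MYB12 (comp21199_c0), MYB5 (comp3741_c0) and MYB3R-1 (comp96965_c0), all 3 enriched in root and described there. Without flower replicate 1 only MYB3 was still called low in flower.

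Root held 6 enriched genes, among them a further MYB12 ID. MYB12 (comp21199_c0) had 157 and 40.2 scaled CPM in root, against 0.155 and 0.043 in leaf, 0.066 and 0 in flower, with 13.5 and 21.9 in fruit. The log2 difference of root was 7.86 ± 0.66 (adjusted p = 0.00278), and both root libraries stood above all others. Against leaf and flower alone root was higher by 9.93 ± 1.13 and 11.16 ± 1.26, and against fruit it did not pass (2.48 ± 0.78, adjusted p = 0.157). Its low call in flower (-7.03 ± 1.13, adjusted p = 0.00692) rested on 2 counts there, a root to flower ratio of 2254-fold with a counting interval of 624 to 18612. That call was lost without leaf replicate 1 and without either flower library (adjusted p between 0.0263 and 0.0548). MYB48 (comp11141_c0) had 7.02 and 12.5 scaled CPM in root, against 0.177 and 0.347 in leaf, 0.066 and 0.339 in flower, with 0.234 and 0.024 in fruit. Root was enriched by 5.67 ± 0.79 (adjusted p = 0.00885), with 94.3% of the sum of organ means in root, although root did not pass against fruit alone (6.15 ± 1.27, adjusted p = 0.0657). Leaf, flower and fruit did not pass against each other for MYB48 (comp11141_c0).

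A shorter MYB5 ID (comp3741_c0, 385 bases) had 4.88 and 4.24 scaled CPM in root, against 0.596 and 1.41 in leaf, 0.066 and 0.113 in flower, with 1.31 and 1.83 in fruit. It was enriched in root (3.13 ± 0.50, adjusted p = 0.0121) and low in flower (-4.43 ± 0.76, adjusted p = 0.00841). The root call was lost without root replicate 1 (adjusted p = 0.074), and the flower call without flower replicate 1 (adjusted p = 0.0703). Proteins of the MYB3R type regulate genes of the G2 to M step of the cell cycle, and the 407-base ID MYB3R-1 (comp96965_c0) had 1.92 and 1.62 scaled CPM in root, against 0.221 and 0.26 in leaf, 0.033 and 0 in flower, with 0.263 and 0.268 in fruit. Root was enriched by 3.97 ± 0.66 (adjusted p = 0.0136), which was lost without either root, leaf or fruit library (adjusted p between 0.0513 and 0.0893). Its low call in flower (-4.45 ± 1.05, adjusted p = 0.0246) was lost whichever library was left out (adjusted p between 0.0543 and 0.0843).

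The other root calls rested on few counts or on 1 library. MYB308 (comp73704_c0) had 4.33 and 0.581 scaled CPM in root, against 0.044 and 0.043 in leaf, 0.725 and 0.848 in flower, with 0.365 and 0.365 in fruit, so that root and flower overlapped. Its root enrichment (3.37 ± 0.73, adjusted p = 0.0303) was lost without each library other than root replicate 2 (adjusted p up to 0.535), and its low call in leaf (-4.26 ± 1.09, adjusted p = 0.0434) was lost in the same cases (adjusted p up to 0.289). MYB114, a name of an Arabidopsis anthocyanin regulator, was a 240-base ID with 116 counts in all (comp69772_c0). It had 0.728 and 0.803 scaled CPM in root, against 0 and 0.022 in leaf, none in flower, and 0.351 and 0.195 in fruit. Root was at least 12.3-fold higher than flower, set against 3 counts over both flower libraries, and the root call (adjusted p = 0.0276) was lost whichever library was left out (adjusted p between 0.0593 and 0.134). With 1 library left out, 3 or 4 MYB genes were enriched in root, 3 without root replicate 1, leaf replicate 1, leaf replicate 2 or fruit replicate 1, against 6 with all 8. On log2(TPM + 1) root had 8 enriched and 1 low MYB genes, against 6 and 2 on counts.

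**Figure D4:**
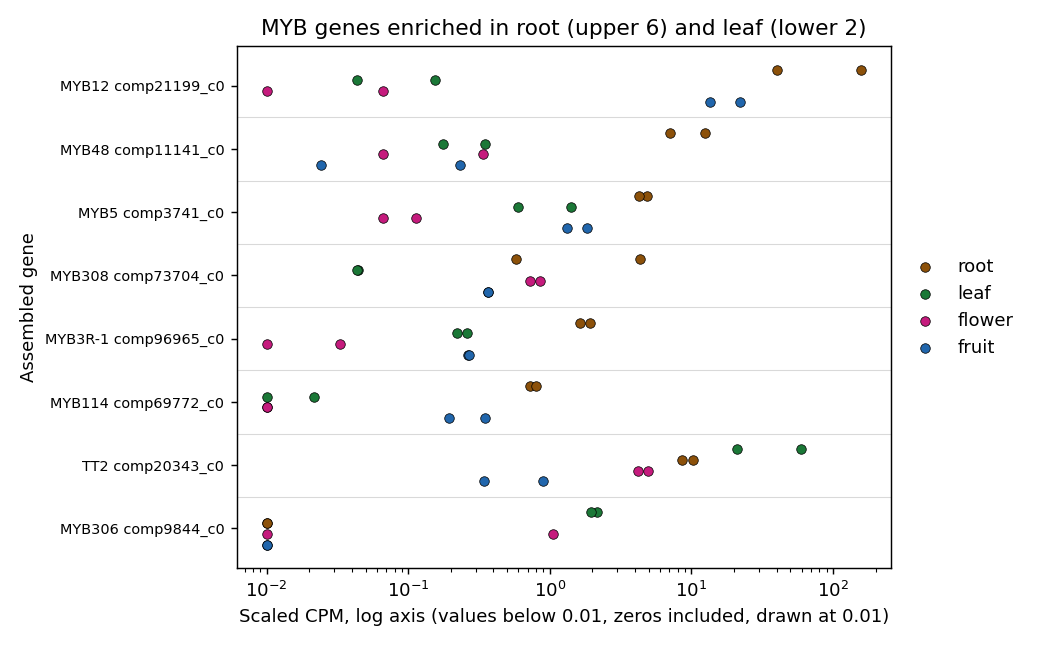
Scaled CPM on a log axis of the 6 MYB genes enriched in root (upper rows) and the 2 enriched in leaf (lower rows), 1 point per library, with the enriched organ drawn uppermost in each row. MYB12 comp21199_c0 spans 40.2 to 157 in root and 13.5 to 21.9 in fruit, and TT2 spans 20.9 to 59.4 in leaf.

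TT2, known in Arabidopsis as the activator of proanthocyanidin synthesis in the seed coat, was 1 of the 2 MYB genes enriched in leaf. Its ID comp20343_c0 had 20.9 and 59.4 scaled CPM in leaf, against 10.3 and 8.61 in root, 4.91 and 4.18 in flower, and 0.891 and 0.341 in fruit. Leaf was enriched by 3.74 ± 0.45 (adjusted p = 0.00223), and leaf passed against flower (3.14 ± 0.65) and fruit (adjusted p = 0.0092) but not against root alone (2.09 ± 0.62, adjusted p = 0.0779). Fruit was low for TT2 (-4.26 ± 0.65, adjusted p = 0.0213), with the 4 organs in the order leaf, root, flower and fruit. Root and flower did not pass against each other (1.05 ± 0.61, adjusted p = 0.259). The fruit call was lost without leaf replicate 2 and without each flower and each fruit library (adjusted p between 0.0626 and 0.113). A short MYB306 ID (comp9844_c0, 343 bases) had 2.16 and 1.95 scaled CPM in leaf, against none in root, 1.05 and 0 in flower, and none in fruit. Leaf was at least 74.1-fold higher than root and at least 75.1-fold higher than fruit, each set against 3 counts over both libraries. Its leaf call (adjusted p = 0.0434) was lost without each library other than flower replicate 1 (adjusted p between 0.032 and 0.191), and the test among all organs did not pass (adjusted p = 0.0712).

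Besides MYB4 (comp11577_c0) and MYB308 (comp73704_c0), the genes low in leaf were MYB82 and another MYB4 ID. MYB82, known in Arabidopsis from trichome formation, had 0 and 0.022 scaled CPM in leaf (comp16846_c0), against 14.9 and 5.23 in root, 0.198 and 0.226 in flower, and 5.80 and 9.53 in fruit. The log2 difference of leaf was -7.53 ± 1.04 (adjusted p = 0.00418), and the root to leaf ratio was 880.1-fold with a counting interval of 158 to 34794, from 1 count in leaf. Root and fruit did not pass against each other (0.39 ± 0.72, adjusted p = 0.847), and both passed against flower. MYB4 (comp807_c0) had no count in leaf, against 3.14 and 1.35 scaled CPM in root, 0.034 and 0 in flower, and 3.44 and 2.16 in fruit. Fruit was at least 90.1-fold higher than leaf, set against 3 counts over both leaf libraries. The leaf call (adjusted p = 0.0204) was lost without either leaf or fruit library or flower replicate 1 (adjusted p between 0.0509 and 1). Leaf low calls numbered 1 without flower replicate 1 and without each leaf and fruit library in turn, and 3 or 4 without the others. On log2(TPM + 1) leaf had 2 enriched and 0 low MYB genes, against 2 and 4 on counts.

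No MYB gene was enriched in fruit by edgeR with TMM and all 8 libraries at an adjusted p under 0.05. Under other settings edgeR called 1 with a filter of at least 1 CPM in 2 libraries, 2 with scaling by library totals and 0 or 1 with a library left out, DESeq2 called 1 and limma on log2(TPM + 1) called 3. At an unadjusted p under 0.05 with the same gap to the other organs, edgeR with TMM gave 2, a short MYB305 ID (comp562_c0, 269 bases) and a short MYB4 ID (comp72568_c0, 385 bases). MYB305 (comp562_c0) had 1.04 and 0.414 scaled CPM in fruit, against 0 and 0.034 in root and none in leaf or flower (adjusted p = 0.0525). The longer MYB305 ID thus had its counts almost wholly in flower, where the shorter one had none. MYB4 (comp72568_c0) had 2.34 and 1.32 scaled CPM in fruit, against 0.121 and 0 in root and none in leaf or flower (adjusted p = 0.0519). The untested MYB21 ID (comp1892_c0, 225 bases) had a like profile, with 0.57 and 0.219 scaled CPM in fruit, against 0 and 0.034 in root and none in leaf or flower. For all 3 short IDs fruit replicate 1 was the higher library. Low calls in fruit, besides MYB308 (comp14462_c0) and TT2, included MYB12 (comp13970_c1; -5.82 ± 1.08, adjusted p = 0.0325). That call was lost without each library other than flower replicate 1 (adjusted p between 0.0538 and 0.201). Of the 3 low calls in fruit, 0 were made without leaf replicate 2, flower replicate 2 or either fruit library, and 1 or 2 without the others. With scaling by library totals fruit had 2 enriched and 3 low MYB genes, and on log2(TPM + 1) it had 3 and 2, against 0 and 3 with TMM.

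Several IDs carried the same name with different organ profiles. Of the 12 names held by 2 or more IDs, which covered 35 IDs, 11 had IDs whose highest organs differed. The exception was MYB82, with both IDs highest in root. A highest mean is not a call, and several of these IDs passed no test. Over all genes tested the highest organ was root for 26.7%, leaf for 25.8%, flower for 28.5% and fruit for 19.1%. IDs taken without regard to name would thus also often differ in highest organ, and no such share was computed. The second MYB82 ID (comp1754_c0) had 5.04 and 0.359 scaled CPM in root, against at most 1.55 in any library of another organ, and had no call. MYB44 had 7 IDs. The most abundant by TPM, comp14383_c0 and comp19927_c0, averaged 47.3 TPM each over the libraries. MYB44 (comp19927_c0) differed among organs (adjusted p = 0.0113), with 217 and 89.96 scaled CPM in flower, against 21.3 and 12.6 in root, 23.0 and 19.99 in leaf, and 117 and 75.7 in fruit. MYB44 (comp6363_c0, 489 bases) was likewise high in flower and fruit, with 43.1 and 9.66 in flower and 31.8 and 25.7 in fruit, against 0.162 and 0.564 in root and 0.971 and 0.391 in leaf. In both, flower and fruit did not pass against each other (adjusted p = 0.398 and 0.942). Neither ID was called enriched in a single organ, since flower and fruit stood less than 1 log2 unit apart. MYB44 (comp2177_c0) had 6.48 and 3.13 scaled CPM in root and 0.146 and 4.73 in fruit, with none in leaf or flower. Its fruit level was that of replicate 2, the library with high OLE1, and the part of seed tissue in it was not tested.

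**Figure D5:**
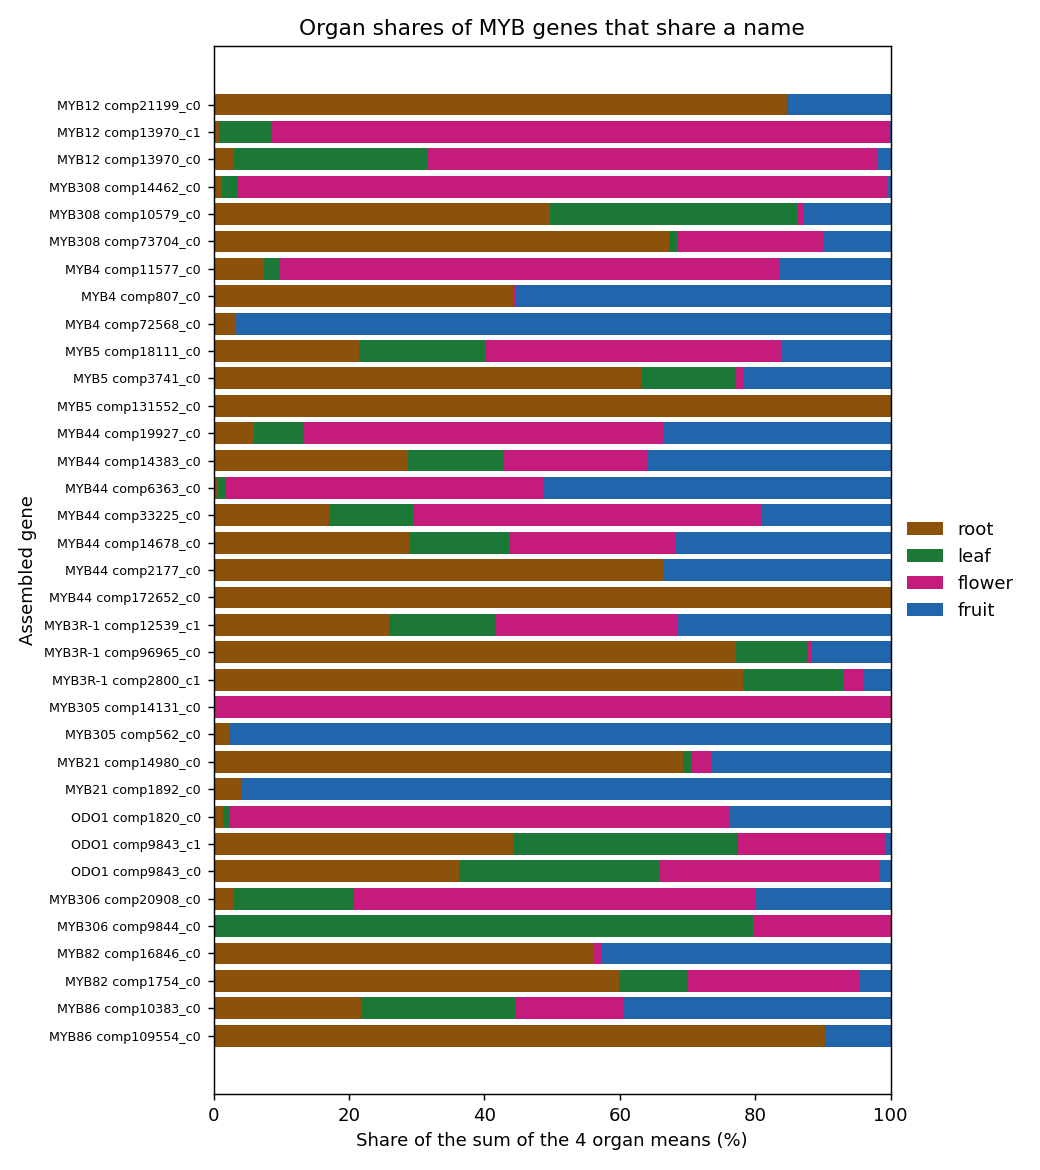
Share of each organ in the sum of a gene's 4 organ means of scaled CPM, in percent, for the 35 IDs of the 12 names held by several IDs. By highest mean, the MYB12 and MYB308 IDs split between flower and root, and the MYB305 IDs between flower and fruit. A highest mean is not a call. MYB308 comp10579_c0 had 49.7% in root with leaf next, and root did not pass against leaf.

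The ODO1 IDs from one assembly component (comp9843_c0 and comp9843_c1, 327 and 295 bases) had no organ call and at most 1.28 scaled CPM in any library. Both had their lowest level in fruit, at 0.058 and 0 and at 0.029 and 0 scaled CPM. The longer MYB21 ID (comp14980_c0), named after an Arabidopsis regulator of stamens and petals, did not have its highest level in flower. It had 1.32 and 0.565 scaled CPM in flower, against 0.789 and 44.3 in root, 0.684 and 0.174 in leaf, and 9.71 and 7.50 in fruit. The root value rested on replicate 2, and MYB21 passed no contrast (adjusted p = 0.0609 for root). MYB306 (comp20908_c0) had 84.3 and 113 scaled CPM in flower, against 0.405 and 9.69 in root, 31.3 and 27.6 in leaf, and 31.4 and 35.5 in fruit. Both flower libraries were above all others, yet flower did not pass (2.53 ± 0.80, adjusted p = 0.0617).

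The next members did not pass the test among organs. MYB44 (comp14383_c0) ranged from 25.5 to 93.7 scaled CPM over all libraries, with an adjusted p of 0.191 among organs. MYB3R-1 (comp12539_c1), the longest ID of that name, ranged from 3.27 to 7.46 (adjusted p = 0.287). The name mybQ (comp10390_c0) ranged from 2.998 to 7.82 scaled CPM, with an adjusted p of 0.391. MYB330 (comp20422_c0), a snapdragon repressor by name, had 15.5 and 12.6 scaled CPM in fruit, against 10.2 and 10.2 in root, 2.58 and 4.67 in leaf, and 9.75 and 5.65 in flower, and did not pass (adjusted p = 0.0689 among organs). WER, which patterns root hairs in Arabidopsis, had its highest mean in root. WER (comp13484_c0) had 1.62 and 0.325 scaled CPM in root and 1.04 in leaf replicate 2, so that root and leaf overlapped. MYB genes of at least 500 bases numbered 28, all tested, of which 17 differed among organs, and of the 16 shorter ones 13 were tested and 5 differed. Over all genes tested, of any length, 29.3% differed, and that share was not split by length.

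Partners and target enzymes of MYB proteins were read from lists of names. Of 5 IDs in the partner list, all tested, 2 differed among organs, GL3 and PAC (29.3% of all genes tested did). PAC (comp16898_c0) had no annotation beside its name, which also stands for a chloroplast protein of Arabidopsis, and was enriched in leaf at 17.6 and 27.4 scaled CPM. The bHLH name TT8 (comp20592_c0) had 88.1 and 63.9 scaled CPM in root, 49.4 and 54.1 in leaf, 30.2 and 30.8 in flower, with 36.5 and 18.0 in fruit, and did not pass (adjusted p = 0.0568 for root). GL3 (comp21873_c0), a bHLH partner, had 7.94 and 6.50 scaled CPM in flower, against 39.8 and 16.9 in root, 19.3 and 25.0 in leaf, and 10.2 and 11.99 in fruit, and passed the flower contrast without a low call (-1.40, adjusted p = 0.0445). The WD40 name TTG1 (comp12902_c0) ranged only from 21.5 to 49.6 scaled CPM. The flavonoid enzyme list by its wording also took in 2 CYP750 names of another P450 family. Of 26 IDs tested in it, 14 differed among organs (29.3% of all genes tested did). Of the 26, 7 were called enriched in flower (9.94% of all genes tested) and 2 each in root (4.68%), leaf (7.73%) and fruit (2.8%). Of these, FLS (comp3567_c0, flower) and DFRA (comp4292_c0, fruit) did not pass among organs. The flower calls of FLS comp3567_c0 and comp2028_c0 rested on flower replicate 1. They had 8.73 and 0.17 and 7.51 and 0.113 scaled CPM in the flower libraries. The leaf calls were CYP750A1 (comp26804_c0), of that other P450 family, and FLS2 (comp88812_c0). The other fruit call, CHSJ (comp22620_c0), rested on fruit replicate 2, with 2.44 and 1869 scaled CPM in the fruit libraries. Chalcone synthase CHS (comp17908_c0), the entry enzyme, had 12182 and 11156 scaled CPM in flower, against 2174 and 135 in root, 90.9 and 530.3 in leaf, and 72.8 and 98.7 in fruit. BAN (comp16062_c0) and LAR (comp6581_c0), reductases of proanthocyanidin synthesis, were enriched in root, with 2222 and 33.0 and with 167 and 11.7 scaled CPM there. BAN reached 57.9 in fruit replicate 2, above root replicate 2, and LAR at most 0.152 outside root. Of 35 phenylpropanoid and lignin IDs tested, 21 differed among organs (29.3% of all genes tested did). Of the 35, 10 were called enriched in flower (9.94% of all genes tested), 3 in leaf (7.73%) and 1 in root (4.68%). Of these, 4CLL7 (comp22123_c0, flower) and 4CLL1 (comp861_c0, leaf) did not pass among organs. No list was tested against these shares. PAL, the entry enzyme, had IDs of unlike profile. PAL (comp23045_c0) was enriched in flower, with 2205 and 1619 scaled CPM there and at most 527 elsewhere. PAL (comp22358_c0) had 2147 and 177 scaled CPM in root and 225 and 202 in flower. That ID had 141 and 227 in leaf and 5.14 and 149 in fruit, and no call. On the authors' TPM, which allow for transcript length, PAL (comp23045_c0) had 402 and 364 in flower, against 515 and 382 in root, 273 and 304 in leaf, and 361 and 157 in fruit, so that flower and root overlapped.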

How the data were processed

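The deposited table holds, per the file headers, the authors' estimated counts, TPM and RPKM per assembled gene for 8 libraries of poly(A) RNA. The deposited RPKM were not used. Assembler, counting tool, name source and strand handling were all not given in the sources used here. Reads of near-identical IDs, paralogs and fragments of one gene, may be split between IDs. Deposited estimated counts, at least 97.98% of them within 0.005 of a whole number, were rounded and fitted with edgeR 4.0.16 (quasi-likelihood F test, TMM, filterByExpr, tissue as the only term) in R 4.3.3. Of 30177 IDs, 27939 were tested and 2238 were removed, with 4 residual degrees of freedom. Alternatives used DESeq2 1.42.0 and limma 3.58.1 on log2(TPM + 1) of the authors' deposited TPM. Counting intervals (exact binomial, 95%) and floors of 3 counts cover counting error only.

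The members, lists and rules were chosen with earlier results of these data known. By rule, every enriched or low member is named, with values for at most 6 enriched and 2 low per organ, for MYB305, for 3 abundant members that pass no organ contrast, and for names held by several IDs. Further members and the named enzymes were added after their values were seen.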

Additional observations from a re-analysis of the deposited data

How the results depend on the processing

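None of the 32 enriched and low calls of MYB genes changed sign under those of the 16 alternatives that tested the ID. That says little, since the alternatives reuse the libraries on which calls with a gap of at least 1 log2 unit were chosen. Under all 16 alternatives 9 calls were made. In flower these were MYB305 (comp14131_c0), MYB308 (comp14462_c0), MYB12 (comp13970_c1), MYB90 and MYB39. The others were MYB12 (comp21199_c0) and MYB48 in root, TT2 in leaf, and MYB3 as low in flower. In all, 381 of 509 repeat tests kept the call and 128 lost it; the cause was not tested. Counts with all libraries were 22 differing among organs, 10 enriched and 5 low in flower, 6 and 2 in root, 2 and 4 in leaf, and 0 and 3 in fruit. Without each library in turn they ranged from 12 to 19 differing, 5 to 11 and 1 to 4 in flower, 3 to 4 and 1 to 2 in root, 1 to 2 and 1 to 4 in leaf, and 0 to 1 and 0 to 2 in fruit, where the lone library of an organ was taken to vary like the other organs. On log2(TPM + 1), 6 were enriched and 3 low in flower, 1 low in root, 0 low in leaf and 3 enriched in fruit. Scaling by totals without the 20 highest genes gave 6 enriched in flower and 2 in fruit. DESeq2 gave 7 low in leaf, 7 low in fruit and 1 enriched in fruit, and 31 differing among organs. No filter on low counts gave 1 enriched in leaf, and a filter of at least 1 CPM in 2 libraries gave 1 enriched in fruit. Leaving out the TAR1-A IDs or using RLE factors changed no count by more than 1.5 times.

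Replicate numbers were not taken to pair libraries, since the labels do not say that same-numbered libraries share a plant. Same-numbered deviations from the organ means did correlate across genes among the organs of the blossom period. The correlation was 0.44 for root and leaf, 0.38 for root and flower and 0.49 for leaf and flower. With fruit it was -0.16 for root, 0.10 for leaf and -0.04 for flower. A plant or batch shared by same-numbered root, leaf and flower libraries was not tested. With the replicate number as a block, 19 MYB genes differed among organs, 1 was enriched and 2 were low in leaf. The block fit did not call MYB308 (comp73704_c0) in root or leaf, MYB306 (comp9844_c0) or MYB4 (comp11577_c0) in leaf, or MYB5 (comp18111_c0) in flower (adjusted p between 0.0527 and 0.0637).

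Scaling by totals placed the median of all genes for root at 0.50 and for fruit at 0.36 on the log2 scale, against 0.10 and 0.01 with TMM. Estimated counts and TPM implied effective lengths that differed at most 1.30-fold between libraries for a MYB gene, over libraries with 20 or more counts. Depth limits what a count of 0 shows: an organ with no count could still hold 3 over its libraries, which is 0.0278 scaled CPM in root and 0.0624 in flower.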
